A study of Mus musculus with 20 samples.

Results

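Amino acid transport across the plasma membrane of fat cells is described here through 10 transporter genes, chosen by name among the 25219 genes of the deposited table: Slc3a2, Slc7a5, Slc7a7, Slc7a10, Slc7a1, Slc7a2, Slc1a3, Slc1a5, Slc38a1 and Slc38a2. Their transcripts were measured in inguinal white adipose tissue (iWAT) and brown adipose tissue (BAT), with 5 libraries of each genotype, Control and Ai-α4KO, from each depot. Ai-α4KO mice carried floxed alleles of Igbp1, the gene of the phosphatase binding protein α4, together with an Adiponectin-CreERT2 transgene. This Cre is driven by the adiponectin promoter and is active only with tamoxifen, so deletion is directed at adipocytes, while tissue RNA also holds that of every other cell type in the depot. Control mice carried the floxed alleles without the Cre transgene according to the study's methods, whereas the labels give their genotype as WT. Both genotypes received tamoxifen as 5 injections over 6 days, starting at 2 months of age, and tissue was taken 1 week after recombination. The mice were males. The labels do not say whether the same mice gave both depots or that each library came from a separate animal, so the p-values measure the spread between these libraries. In such bulk RNA, fewer cells of a type and less RNA per cell cannot be told apart.

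Amino acids cross the plasma membrane through families of solute carriers with overlapping substrates. Slc3a2 encodes the heavy chain 4F2hc (CD98), which is disulfide-linked to one of several SLC7 light chains that carry the substrate. The cationic transporters of the SLC7 family work without it and bring arginine and lysine into the cell. SLC1 carriers move glutamate or small neutral amino acids, and the sodium-coupled SLC38 carriers accumulate glutamine and alanine. Several of these genes are known to be induced when amino acids are scarce or when lymphocytes and macrophages are activated.

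Between 24023371 and 50384446 reads were counted per library. CPM, in which each library's counts are brought to one total by TMM over all 20 libraries, is used here for 1 gene across libraries, and FPKM, which also divides by transcript length, for levels of different genes. Igbp1 itself was at 57.5 to 76.6 CPM in Control iWAT and at 10.1 to 11.1 CPM in Ai-α4KO iWAT, a log2 fold change of -2.65 (standard error 0.094; edgeR, adjusted p = 4.99e-08). In BAT it was at 85.4 to 105 CPM in Control and 13.7 to 25.2 CPM in Ai-α4KO libraries, a log2 fold change of -2.50 (standard error 0.169; edgeR, adjusted p = 2.2e-07). The summed level of 6 brown adipocyte markers, among them Ucp1, was 7620 to 11770 CPM in Control BAT and 109 to 881 CPM in Control iWAT, so the depots matched their labels. Control iWAT libraries 1 and 4 stood apart in lymphocyte transcripts. Their mean log2 CPM over 8 B cell markers was 5.79 and 4.45, against at most 0.79 in every other library. Skeletal muscle transcripts were high in Control iWAT 4, in Ai-α4KO iWAT 1 and in all BAT libraries, and 5 of 8 muscle markers were called higher in Ai-α4KO BAT.

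All 10 transporters passed edgeR's filter on low counts in both depots. A gene was called when its adjusted p in edgeR's quasi-likelihood test was below 0.01 and its fold change at least 2. In Ai-α4KO iWAT 5 transporters were higher (Slc7a1, Slc7a5, Slc7a7, Slc38a1 and Slc38a2), 3 were lower (Slc7a10, Slc1a3 and Slc1a5), and Slc7a2 and Slc3a2 were not called. Of all 14604 genes tested in iWAT, 11.3% were called higher, 10.7% lower and 22.0% in either direction. In Ai-α4KO BAT 6 transporters were higher (Slc7a1, Slc7a2, Slc7a5, Slc7a7, Slc3a2 and Slc38a1), 2 were lower (Slc1a3 and Slc1a5), and Slc7a10 and Slc38a2 were not called. Of the 14344 genes tested in BAT, 18.2% were called higher, 13.3% lower and 31.5% in either direction. The 4 transporters higher in both depots were Slc7a1, Slc7a5, Slc7a7 and Slc38a1, and the 2 lower in both were Slc1a3 and Slc1a5. Over all 13975 genes tested in both depots, 9.49% were higher in both and 7.71% lower in both. The median log2 fold change of the transporters was 0.97 in iWAT and 1.26 in BAT, where that of all genes was 0.02 and -0.03. The transporters were chosen with earlier results of these data known. Their counts and median beside all genes are a description and no test.

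**Figure D1:**
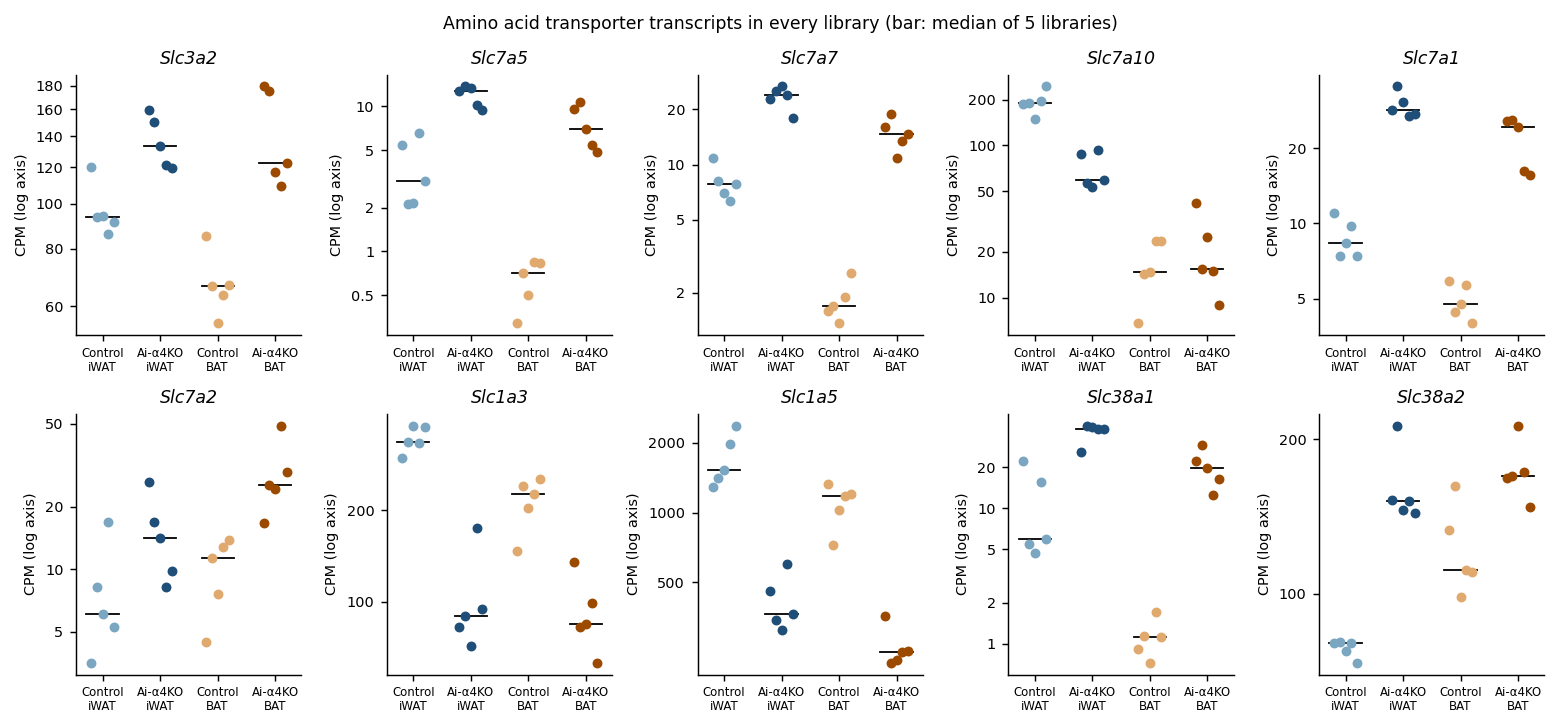
CPM of each of the 10 transporters on a logarithmic axis, with 1 point per library and a bar at the median of the 5 libraries of Control iWAT, Ai-α4KO iWAT, Control BAT and Ai-α4KO BAT. Slc38a1 and Slc7a5 were lowest in Control BAT, at most 1.73 and 0.847 CPM, and Slc1a5 ran from 225 CPM in Ai-α4KO BAT to 2369 CPM in Control iWAT.

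**Figure D2:**
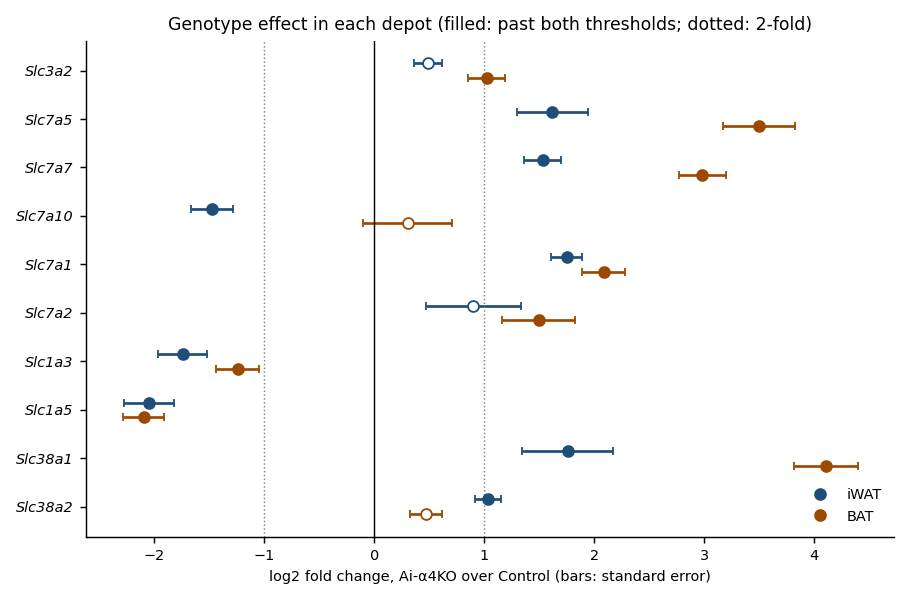
Log2 fold change of Ai-α4KO over Control in iWAT (blue) and BAT (brown) for each transporter, with standard errors from edgeR; filled points passed both thresholds and dotted lines mark a 2-fold change. Slc38a1 had the highest estimate in BAT (4.11) and Slc1a5 the lowest in both depots (-2.05 and -2.10).

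Slc3a2, the heavy chain gene, lies on chromosome 19 from 8706882 to 8723369 on the minus strand (mm10, the build of every coordinate here; Entrez 17254). It was at 120, 93.8, 93.8, 85.8 and 91.2 CPM in Control iWAT libraries 1 to 5 and at 159, 150, 133, 121 and 120 CPM in Ai-α4KO iWAT. Control iWAT 1 lay above the lowest Ai-α4KO library, and the other four Control libraries lay below all 5. Its log2 fold change of 0.49 (standard error 0.124; edgeR, adjusted p = 0.00606) was below 2-fold. In BAT Slc3a2 was at 85.0, 66.3, 55.1, 63.6 and 66.7 CPM in Control and at 179, 175, 117, 109 and 122 CPM in Ai-α4KO libraries. The BAT groups did not overlap, with a log2 fold change of 1.02 (standard error 0.167; edgeR, adjusted p = 2.08e-04; exact permutation p = 0.0079, the smallest that 5 libraries against 5 allow). That fold sat at the threshold and dropped under it when Control BAT 3 (0.96), Control BAT 4 (0.998), Ai-α4KO BAT 1 (0.93) or Ai-α4KO BAT 2 (0.93) was left out. The difference in effect between depots was 0.57 (standard error 0.215; edgeR, adjusted p = 0.0793) and was not called.

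Slc7a5 encodes LAT1, the light chain that exchanges large neutral amino acids such as leucine for intracellular glutamine (chromosome 8, 121881146 to 121907686, minus strand; Entrez 20539). It was at 5.47, 2.11, 2.14, 6.51 and 3.08 CPM in Control iWAT and at 12.8, 13.8, 13.4, 10.3 and 9.52 CPM in Ai-α4KO iWAT. The groups did not overlap, and the Control libraries 1 and 4, those with lymphocyte transcripts, were the highest of their group. Slc7a5 rose by 1.62 on the log2 scale in iWAT (standard error 0.325; edgeR, adjusted p = 0.00147), and by 2.21 without those 2 libraries (edgeR, adjusted p = 4.56e-05). In Control BAT it was at 0.319, 0.704, 0.499, 0.847 and 0.836 CPM, which rested on 7 to 24 counts per library. Ai-α4KO BAT had 9.65, 10.8, 7.03, 5.44 and 4.81 CPM, so that even its lowest library exceeded every Control library. Slc7a5 rose by 3.5 on the log2 scale in BAT (standard error 0.325; edgeR, adjusted p = 2.37e-06), an 11.3-fold change.

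Slc7a7 encodes y+LAT1, the light chain that exports cationic amino acids in exchange for neutral ones and sodium (chromosome 14, 54369442 to 54417702, minus strand; Entrez 20540). It was at 10.9, 8.14, 6.99, 6.31 and 7.86 CPM in Control iWAT and at 22.9, 25.1, 26.7, 24 and 18 CPM in Ai-α4KO iWAT, a rise of 1.53 on the log2 scale (standard error 0.166; edgeR, adjusted p = 2.45e-05). In BAT it was at 1.59, 1.68, 1.36, 1.91 and 2.55 CPM in Control and at 16.0, 18.8, 10.9, 13.5 and 14.7 CPM in Ai-α4KO libraries. Neither depot showed any overlap between the genotypes. The rise in BAT was 2.98 on the log2 scale (standard error 0.213; edgeR, adjusted p = 3.18e-07), larger than in iWAT by 1.49 (standard error 0.26; edgeR interaction, adjusted p = 0.00129). That difference was 0.63 and not called with limma on log2(FPKM + 1) (adjusted p = 0.0529), a scale on which changes of low genes are understated. For 228 bases Slc7a7 overlaps Oxa1l on the other strand, a gene with log2 fold changes of -0.85 in iWAT and -1.27 in BAT. The library kit keeps the strand, but whether the counting used it is not given in the sources used here.

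Promoter windows of RefSeq (GRCm38.p6, from 250 bases before to 50 after a start) were at hand for 6 of the 10 transporters: Slc7a1, Slc7a10, Slc7a7, Slc1a3, Slc38a2 and Slc3a2. They came to 11 windows, with the most for Slc7a7, some of them overlapping. The motif TGATGNAA, the letters of the composite site of ATF4 and C/EBP factors, was found on either strand in 3.97% of all 32851 windows and in those of 1 transporter, Slc7a7. Its matches are shown because Slc7a7 was called higher in both depots with a larger effect in BAT, and capitals mark the motif, with both read 5′ to 3′ on the minus strand. They are at chr14:54418070-54418093 and chr14:54417930-54417953.
Slc7a7 upstream match: cttgggctTGATGAAAggttcact
Slc7a7 match at a start: ctagaagcTGATGCAAcagcttcc
The first lies at positions -141 to -134 from a RefSeq start, and the second spans the same start at -1 to 6. The bases just after this start were not found in a reference transcript of Slc7a7. They were found for another RefSeq start at 54417702, the end given above for the counted gene. From that start the second match lies at -243 to -236. The E-box CACGTG was in 7.15% of all windows, the NF-kappaB motif in 0.41% and the PPAR motif in 0.04%, and their letters were not in the windows of the 6 transporters on either strand. A match is a description of letters and no evidence of binding.

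Slc7a10 encodes Asc-1, the light chain for small neutral amino acids including serine, and is known as a marker of white adipocytes (chromosome 7, 35186385 to 35201111, plus strand; Entrez 53896). It was at 187, 190, 148, 197 and 244 CPM in Control iWAT and at 87.5, 56.8, 53.0, 92.6 and 59.3 CPM in Ai-α4KO iWAT. Every Ai-α4KO iWAT library was below every Control library, and the 2 highest of them, 1 and 4, also had the highest adipocyte marker levels of their group. In iWAT its log2 level fell by 1.47 (standard error 0.192; edgeR, adjusted p = 7.82e-05), to 2.78-fold lower levels. In BAT it was at 6.78, 14.4, 14.8, 23.5 and 23.7 CPM in Control and at 41.7, 15.4, 24.9, 15.1 and 8.96 CPM in Ai-α4KO libraries. These groups overlapped widely, and 1 library, Ai-α4KO BAT 1, was the highest of the 10. The log2 fold change in BAT was 0.30 (standard error 0.406; 95% interval -0.63 to 1.24; edgeR, adjusted p = 0.531), and -0.08 without Ai-α4KO BAT 1. A difference in effect between depots of 1.82 missed the threshold (standard error 0.488; edgeR, adjusted p = 0.0183). Slc7a10 overlaps Lrp3 for 234 bases on the other strand, and Lrp3 had log2 fold changes of -0.11 in iWAT and -0.84 in BAT.

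The light chains that pair with Slc3a2 were set side by side per length, as shares of the summed FPKM of Slc7a5, Slc7a6, Slc7a7, Slc7a8, Slc7a10 and Slc7a11. In Control iWAT Slc7a10 made up 74.3% to 84.2% of the light chain FPKM. In Ai-α4KO iWAT that share was 33.9% to 52.2%, while Slc7a8 (LAT2) held 15.1% to 22.7%, Slc7a7 10.01% to 13.6%, Slc7a11 (the cystine transporter xCT) 4.56% to 16.2% and Slc7a5 3.22% to 4.87%. Each of the latter 4 held at most 7.23% of the light chain FPKM in any Control iWAT library, and the shares of Slc7a10 and of these 4 did not overlap between the genotypes. Slc7a6 (y+LAT2) held 9.29% to 15.1% in Control iWAT and 14.2% to 18.6% in Ai-α4KO iWAT, which overlapped. In Control BAT Slc7a6 held the most, 52.6% to 84.6%, with Slc7a10 at 7.89% to 24.5%. There Slc7a8 held 4.49% to 22.2%, Slc7a7 1.35% to 2.25%, Slc7a11 0.07% to 0.32% and Slc7a5 0.21% to 0.67%. In Ai-α4KO BAT Slc7a6 held 28% to 39.6%, Slc7a10 12.3% to 29.7%, Slc7a8 15.2% to 22.1%, Slc7a7 8.90% to 15.8%, Slc7a11 8.86% to 14.4% and Slc7a5 3.69% to 4.75%. The shares of Slc7a8 and Slc7a10 overlapped between the genotypes in BAT. The ratio of summed light chain to heavy chain FPKM was 2.97 to 4.82 in Control iWAT and 1.69 to 2.22 in Ai-α4KO iWAT, and 1.34 to 2.72 in Control BAT and 0.899 to 1.23 in Ai-α4KO BAT, without overlap in either depot. These are transcript levels and say nothing of how the proteins pair.

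**Figure D3:**
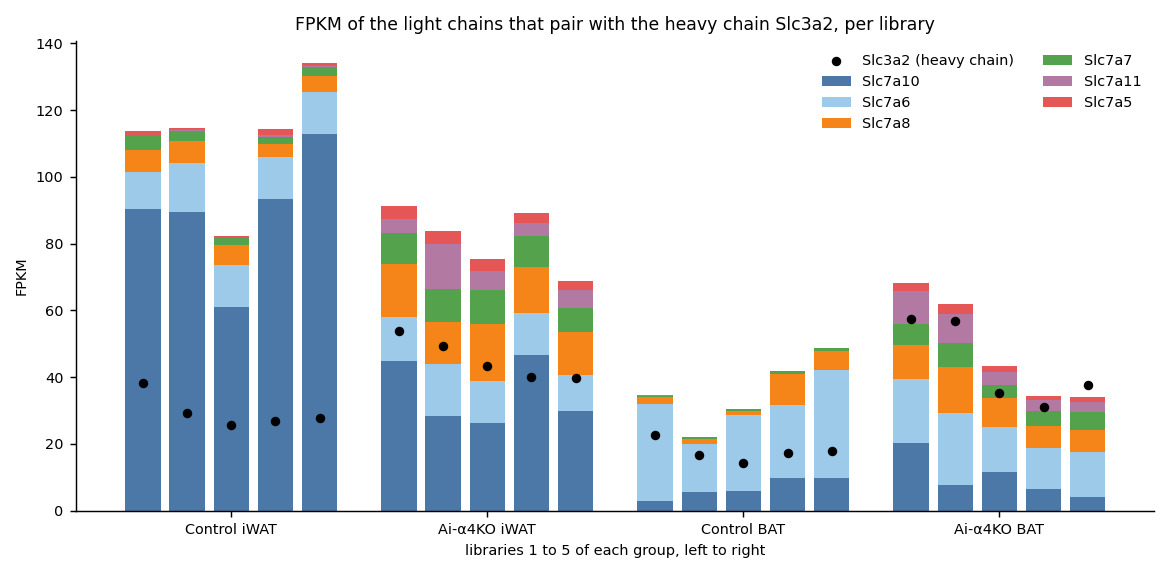
FPKM of the 6 light chain genes stacked for each of the 20 libraries, with black points for the heavy chain Slc3a2. The stack in Control iWAT (82.3 to 134 FPKM) was mostly Slc7a10, and the heavy chain lay below it in all of these libraries, while in Ai-α4KO BAT the ratio of light to heavy chains was between 0.899 and 1.23.

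Slc7a1 encodes CAT1, the widely expressed transporter of arginine and lysine (chromosome 5, 148327410 to 148399904, minus strand; Entrez 11987). It was at 11, 7.40, 8.34, 9.78 and 7.42 CPM in Control iWAT and at 28.3, 35.3, 30.6, 26.9 and 27.3 CPM in Ai-α4KO iWAT. In BAT it was at 5.87, 4.42, 4.76, 5.64 and 3.98 CPM in Control and at 25.6, 26, 24.2, 16.2 and 15.6 CPM in Ai-α4KO libraries. No Control library reached the level of any Ai-α4KO library in either depot. Slc7a1 rose by 1.75 on the log2 scale in iWAT (standard error 0.143; edgeR, adjusted p = 4.8e-06) and by 2.09 in BAT (standard error 0.194; edgeR, adjusted p = 2.4e-06). The difference between depots was 0.37 (standard error 0.235; edgeR, adjusted p = 0.299) and was not called.

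Slc7a2 encodes CAT2, a cationic transporter known from skeletal muscle, liver and activated macrophages (chromosome 8, 40862367 to 40922070, plus strand; Entrez 11988). It was at 3.56, 8.24, 6.09, 16.9 and 5.31 CPM in Control iWAT and at 26.1, 16.8, 14.1, 8.20 and 9.80 CPM in Ai-α4KO iWAT. The groups overlapped, and the highest library of each, Control iWAT 4 and Ai-α4KO iWAT 1, was the library with the most skeletal muscle transcripts in its group. The log2 fold change of 0.90 was not called (standard error 0.431; edgeR, adjusted p = 0.0983), but was 1.37 and passed both thresholds without Control iWAT 4 (edgeR, adjusted p = 0.00921). With 1 iWAT library left out at a time it ran from 0.60 to 1.37 (edgeR, adjusted p up to 0.238). Without the iWAT libraries with high muscle markers it was 1.07 and not called (edgeR, adjusted p = 0.0132). In BAT Slc7a2 was at 4.46, 11.4, 7.57, 12.8 and 13.8 CPM in Control and at 16.8, 25.5, 24.2, 49.0 and 29.5 CPM in Ai-α4KO libraries, without overlap. It rose by 1.5 on the log2 scale (standard error 0.33; edgeR, adjusted p = 0.00187). Ai-α4KO BAT 4 had both the highest Slc7a2 level and the highest muscle marker level of all libraries, and Control BAT 1 had the lowest of both in BAT. With a skeletal muscle marker score as a covariate the log2 fold change was 0.38 (edgeR, adjusted p = 0.317), and among the BAT libraries with the closest muscle marker levels it was 0.89 (edgeR, adjusted p = 0.02), so the call was lost in both. Per length, Slc7a1 exceeded Slc7a2 in all 5 Ai-α4KO iWAT libraries, with FPKM ratios of 1.17 to 3.56, while the ratio in the other groups ran from 0.313 to 3.35.

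Slc1a5 encodes ASCT2, the sodium-dependent exchanger of glutamine, alanine, serine and cysteine (chromosome 7, 16781346 to 16798274, plus strand; Entrez 20514). Per length it was the most abundant of the 10 transporters in every group, with 559 ± 153 FPKM in Control iWAT, 148 ± 42.6 in Ai-α4KO iWAT, 310 ± 73.8 in Control BAT and 87.2 ± 20.1 in Ai-α4KO BAT (SD, n = 5 each). It was at 1284, 1409, 1526, 1980 and 2369 CPM in Control iWAT and at 457, 343, 311, 602 and 366 CPM in Ai-α4KO iWAT. In BAT it was at 1334, 723, 1030, 1179 and 1208 CPM in Control and at 356, 225, 232, 251 and 252 CPM in Ai-α4KO libraries. The lowest Control library of each depot was above the highest Ai-α4KO library. In iWAT its log2 level fell by 2.05 (standard error 0.227; edgeR, adjusted p = 2.77e-05) and by 2.10 in BAT (standard error 0.19; edgeR, adjusted p = 1.94e-06), or 4.14-fold and 4.28-fold. In the fit of all 20 libraries the effects in the depots differed by -0.01 (standard error 0.296; edgeR, adjusted p = 0.982), a value whose sign turned under most alternative settings.

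Slc1a3 encodes GLAST (EAAT1), a sodium-dependent transporter of glutamate and aspartate (chromosome 15, 8634124 to 8710807, minus strand; Entrez 20512). It was at 296, 335, 378, 331 and 374 CPM in Control iWAT and at 82.8, 90.0, 71.9, 175 and 94.6 CPM in Ai-α4KO iWAT. Ai-α4KO iWAT 4 was the highest of its group for Slc1a3 as for Slc1a5, yet lay below every Control library. In BAT Slc1a3 was at 147, 240, 203, 226 and 254 CPM in Control and at 135, 82.8, 84.5, 99.1 and 63.2 CPM in Ai-α4KO libraries, where the library closest to the Control group was Ai-α4KO BAT 1. In iWAT its log2 level fell by 1.74 (standard error 0.223; edgeR, adjusted p = 7.07e-05) and by 1.24 in BAT (standard error 0.199; edgeR, adjusted p = 1.84e-04). The BAT call was lost, with a fold just under 2, without normalization factors (-0.97) and with limma on log2 FPKM (-0.96 with a pseudocount of 1 and -0.99 with 0.1).

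Slc38a1 encodes SNAT1, a sodium-coupled glutamine transporter known from brain and activated lymphocytes (chromosome 15, 96571418 to 96642913, minus strand; Entrez 105727). It was at 22.2, 5.47, 4.70, 15.5 and 5.92 CPM in Control iWAT and at 26, 40.6, 40.0, 38.6 and 38.6 CPM in Ai-α4KO iWAT. The Control libraries 1 and 4, which held the lymphocyte transcripts, were again the highest, and Ai-α4KO iWAT 1 stood below the rest of its group. Slc38a1 rose by 1.76 on the log2 scale in iWAT (standard error 0.415; edgeR, adjusted p = 0.00405), by 2.69 without Control iWAT 1 and 4 (edgeR, adjusted p = 8.71e-06), and by 1.61 without Control iWAT 5, where the call was lost (edgeR, adjusted p = 0.0106). In BAT it was at 0.911, 1.13, 0.725, 1.73 and 1.12 CPM in Control, which rested on 16 to 49 counts per library, and at 22.2, 29.4, 19.7, 12.5 and 16.5 CPM in Ai-α4KO libraries. The lowest Ai-α4KO BAT library was several times the highest Control library. The rise of 4.11 on the log2 scale (standard error 0.288; edgeR, adjusted p = 2.82e-07), 17.2-fold, was the largest of the 10 transporters in either depot. It exceeded that in iWAT by 2.38 (standard error 0.53; edgeR interaction, adjusted p = 0.0067). Without Control iWAT 4 that difference was 2.21 (edgeR, adjusted p = 0.0133), without Control BAT 1, 2, 3 or 5 it was 2.26 to 2.38 (edgeR, adjusted p = 0.0119 to 0.0158), and it was no longer called in any of these. Nor was it called with the replicate number as a block (2.25; edgeR, adjusted p = 0.0171), or with limma on log2 FPKM, where it was 0.146 with a pseudocount of 1 (adjusted p = 0.79) and 1.41 with 0.1 (adjusted p = 0.0665).

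Slc38a2 encodes SNAT2, the amino acid carrier that is known to increase when amino acids are withdrawn (chromosome 15, 96687392 to 96699698, minus strand; Entrez 67760). It was at 80.3, 80.5, 77.3, 80.2 and 73.5 CPM in Control iWAT and at 152, 213, 145, 152 and 144 CPM in Ai-α4KO iWAT. The groups did not overlap and the log2 fold change was 1.04 (standard error 0.12; edgeR, adjusted p = 3.57e-05). With a fold this close to 2, leaving out Ai-α4KO iWAT 2 (0.92), Control iWAT 1 (0.98), Control iWAT 3 (0.98) or both Control iWAT 1 and 4 (0.98), or upper-quartile normalization (0.94), ended the call. Control iWAT 1 and 4 and Ai-α4KO iWAT 1 and 2 also held epithelial transcripts, at 19.7 to 88.7 CPM over 5 markers against at most 1.27 CPM in the other libraries, and without these 4 libraries the log2 fold change was 0.86, which was not called. In BAT Slc38a2 was at 133, 162, 98.6, 112 and 110 CPM in Control and at 168, 170, 212, 173 and 147 CPM in Ai-α4KO libraries, which overlapped through Control BAT 2. The log2 fold change in BAT was 0.47 (standard error 0.146; edgeR, adjusted p = 0.014) and was not called, and the difference between depots was -0.54 (standard error 0.191; edgeR, adjusted p = 0.0612). Slc38a1 remained the less abundant of the pair per length, with an FPKM ratio to Slc38a2 of 0.00378 to 0.00855 in Control BAT and 0.0399 to 0.0954 in Ai-α4KO BAT.

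The genotype effect differed between depots for 2 of the 10 transporters, Slc7a7 and Slc38a1, both with the larger rise in BAT. That count was 1 with the replicate block, 0 with limma on log2(FPKM + 1), 4 with DESeq2 and 1 to 4 with a library left out, and the call of Slc38a1 was lost in 8 of 29 alternatives. Without Control iWAT 1 and 4, which held the lymphocyte transcripts, the iWAT rise of Slc38a1 was 2.69 instead of 1.76, against 4.11 in BAT. The interaction was not refitted without both libraries. In the interaction test 3.10% of 15230 genes were called with a log2 fold change in BAT above that in iWAT, which includes genes that fell less in BAT, 0.735% with one below it and 3.83% in either direction. The 8 transporters that were not called included Slc7a5 (1.91, standard error 0.465; edgeR, adjusted p = 0.0109) and Slc7a10, which were called in DESeq2 and at an adjusted p below 0.05. With limma on log2(FPKM + 1) the difference for Slc7a5 was 0.199 (adjusted p = 0.645).

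Levels in Control mice also differed between depots. Of the 10 transporters, 4 were called lower in Control BAT than in Control iWAT, where 15.4% of 15230 genes were called lower, 7.34% higher and 22.7% in either direction in the fit of all libraries. Slc7a10 was 11.6-fold lower (log2 fold change -3.54; edgeR, adjusted p = 4.06e-07), Slc38a1 9.51-fold (-3.25; edgeR, adjusted p = 2.63e-06), Slc7a5 5.96-fold (-2.58; edgeR, adjusted p = 6.74e-06) and Slc7a7 4.41-fold (-2.14; edgeR, adjusted p = 6.96e-08). With limma on log2(FPKM + 1) the differences of Slc38a1 (-0.89; adjusted p = 0.00152) and Slc7a5 (-0.77; adjusted p = 0.00115) were below 2-fold. Control iWAT 1 and 4, which held the lymphocyte transcripts, were the highest Control iWAT libraries for both genes. Slc38a1 was at 22.2 and 15.5 CPM there, against 4.70 to 5.92 in the others. Slc7a5 was at 5.47 and 6.51, against 2.11 to 3.08 CPM. All 8 macrophage, 7 tested B cell and 6 T cell markers were called lower in Control BAT. All 6 brown adipocyte and 2 of 5 endothelial markers were called higher. The part of cell type content was not tested. The Control ranges of the depots overlapped for Slc7a2 and Slc1a5. Slc38a2 was higher in Control BAT by 0.65 on the log2 scale (edgeR, adjusted p = 5.32e-04) and Slc7a1 lower by a log2 fold change of -0.83 (edgeR, adjusted p = 4.36e-04), both under 2-fold. Without normalization factors Slc7a1 was at -1.06 (edgeR, adjusted p = 1.25e-04) and passed both thresholds. Per length the order in Control iWAT was Slc1a5, Slc7a10 (89.5 ± 18.5 FPKM), Slc1a3 (73.0 ± 4.97), Slc3a2 (29.5 ± 5.09), Slc38a2 (15.2 ± 1.28), Slc7a7 (2.90 ± 0.743) and then Slc38a1, Slc7a1, Slc7a5 and Slc7a2 at means of 0.923 to 1.18 (SD, n = 5 each). The last 4 overlapped in range, as did Slc7a7 with Slc38a1 and Slc7a10 with Slc1a3. In Control BAT Slc1a3 (39.5 ± 7.86 FPKM), Slc38a2 (20.6 ± 3.75) and Slc3a2 (17.7 ± 3.09) followed Slc1a5, with Slc7a10 at 6.66 ± 3.01 and the other five at means of at most 0.99. Slc38a2 and Slc3a2 overlapped in range there. In both Ai-α4KO groups Slc3a2 came second after Slc1a5, with 45.3 ± 6.16 FPKM in iWAT and 43.7 ± 12.5 in BAT (SD, n = 5 each), overlapping in range with Slc7a10, Slc38a2 and Slc1a3 in iWAT and with Slc38a2 in BAT.

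The other transporters listed for comparison were 43 genes, of which 25 were tested in iWAT and 23 in BAT. In iWAT 3 were called higher and 4 lower, and in BAT 3 higher and 3 lower, with median log2 fold changes of 0.17 and 0.48. Over all genes tested 11.3% were higher and 10.7% lower in iWAT, and 18.2% and 13.3% in BAT, so these counts are no result about the list. Slc7a11, which imports cystine in exchange for glutamate, had the largest change of these, with 0.601 to 5.90 CPM in Control iWAT and 38.3 to 128 CPM in Ai-α4KO iWAT. It rose by 4.5 on the log2 scale in iWAT (standard error 0.554) and by 6.59 in BAT (standard error 0.494), both called. Slc36a1, the lysosomal and surface proton-coupled amino acid transporter PAT1, rose by 1.01 and 1.21, Slc7a8 rose by 1.25 in iWAT, and Slc38a4 rose by 2.69 in BAT. Slc36a2, the PAT1 relative PAT2 and a known surface marker of brown and beige adipocytes, fell by 2.03 in iWAT and 2.16 in BAT. Slc1a1, a glutamate transporter like Slc1a3, fell by 1.58 and 1.89. In iWAT Slc43a1 fell by 2.15 and Slc7a3 by 1.48, and in BAT Slc6a19 fell by 2.23 on the log2 scale. Over all 53 transporters, members and others, the summed FPKM was 906 to 1287 in Control iWAT and 432 to 593 in Ai-α4KO iWAT, and 524 to 854 in Control BAT and 375 to 501 in Ai-α4KO BAT. Slc1a5 alone made up 48.1% to 60.2% of that sum in Control iWAT, 25.1% to 36.1% in Ai-α4KO iWAT, 37.0% to 47.8% in Control BAT and 17.8% to 24.5% in Ai-α4KO BAT.

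**Figure D4:**
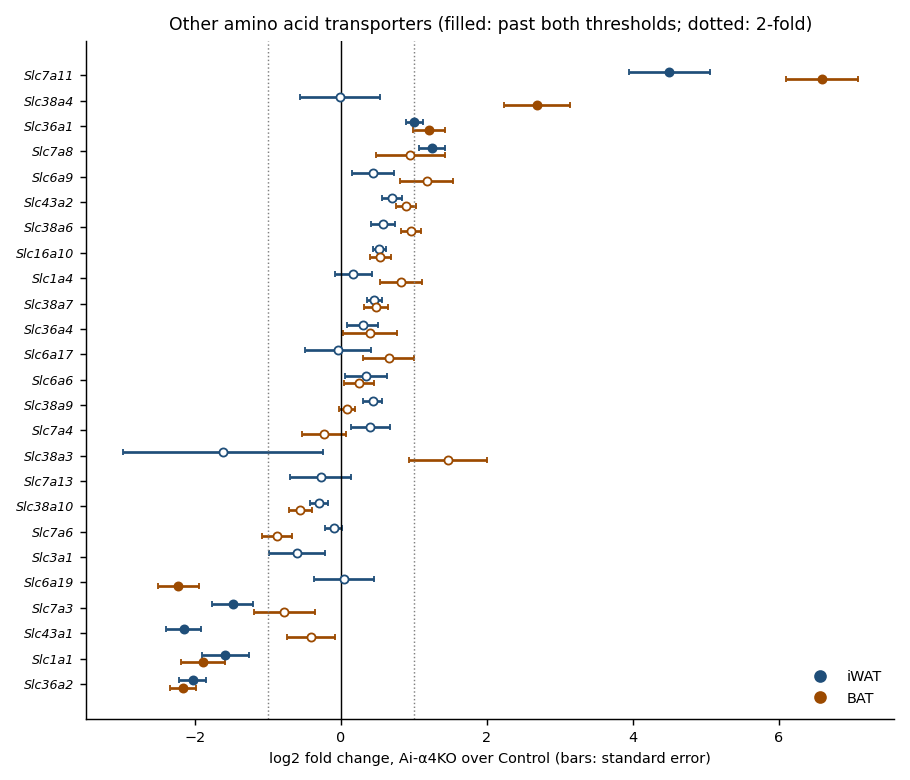
Log2 fold change of Ai-α4KO over Control with standard errors for the other amino acid transporters tested in iWAT (blue) or BAT (brown), ordered by their mean; filled points passed both thresholds and dotted lines mark a 2-fold change. Slc7a11 stands at 4.5 and 6.59, and Slc36a2 at -2.03 and -2.16.

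Genes that handle the transported amino acids were counted in 4 lists, which are described by their counts and medians without a test. Beside these counts stand 11.3% of all genes higher and 10.7% lower in iWAT, and 18.2% and 13.3% in BAT, and nothing is read from a list's count. Of 28 genes known to respond to amino acid shortage through ATF4, 6 rose and 3 fell in iWAT while 7 rose and 5 fell in BAT, with medians of 0.11 and -0.10 on the log2 scale. Those with the largest rise were the secreted factors Gdf15 (6.09 in iWAT, 4.71 in BAT) and Fgf21 (5.71 and 4.89), the transcription factor Atf3 (2.89 and 3.29) and the mitochondrial folate enzyme Aldh1l2 (2.29 and 2.90). Phgdh, the first enzyme of serine synthesis, fell by 2.11 in iWAT, and Ddit4, an inhibitor of mTORC1, fell by 1.65 in iWAT and 1.84 in BAT. Vldlr, a lipoprotein receptor, fell by 1.73 in iWAT, while Sesn2 (-1.61), Trib3 (-1.44) and Atf5 (-1.05) were called lower in BAT. Among 17 enzymes of arginine and polyamine metabolism, of which 16 were tested in iWAT, 3 rose and 2 fell in iWAT while 6 rose and 2 fell in BAT, with medians of 0.42 and 0.997. Sat1, which acetylates polyamines, rose by 1.77 in iWAT and 1.61 in BAT, and Gatm, which uses arginine for creatine synthesis, rose by 1.58 and 2.30. The nitric oxide synthases Nos2 and Nos3 fell in both depots, by 2.36 and 2.06 in iWAT and by 1.62 and 1.5 in BAT.

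Of the enzymes of glutamine, glutamate and serine, 15 were tested in iWAT, with 2 higher and 4 lower, and 14 in BAT, with 4 higher and 4 lower, and the medians were 0.14 and 0.43. Glul, glutamine synthetase, went from 2590 ± 419 to 1024 ± 110 CPM in iWAT and from 2846 ± 439 to 1246 ± 158 CPM in BAT (SD, n = 5 each), log2 fold changes of -1.35 and -1.23, both called. Got1, the cytosolic aspartate aminotransferase, rose by 1.37 in iWAT and 1.77 in BAT, and Srr, serine racemase, fell by 1.19 and 1.48. Gpt, an alanine aminotransferase, fell by 1.44 in iWAT and 1.23 in BAT, and its relative Gpt2 fell by 1.98 in iWAT. Gclm, a subunit of the enzyme that starts glutathione synthesis, rose by 1.0 and 1.57. In BAT Aldh18a1 (1.73), of proline synthesis, and Got2 (1.05) rose, and Shmt1 (-2.05), which interconverts serine and glycine, was lower. Of 27 genes of amino acid sensing by mTORC1, 1 rose and 3 fell in iWAT while 2 rose and 4 fell in BAT, with medians of -0.10 and -0.36. Mtor fell by 1.12 and 1.73, Gatsl3, a cytosolic arginine sensor, fell by 1.58 and 1.70, and Fnip2, a folliculin partner, rose by 1.10 and 1.12 on the log2 scale. Sesn3 fell by 1.02 in iWAT. In BAT the GTPase gene Rragd (2.38) was higher, while Rragb (-1.46) and Nprl2 (-1.36), the latter of a complex that restrains mTORC1, were lower.

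Markers of cell types moved with the genotype beside the transporters. Of 8 adipocyte markers 6 were called lower in each depot, with a summed level of 32250 to 43370 CPM in Control iWAT, 12660 to 17870 in Ai-α4KO iWAT, 26240 to 28440 in Control BAT and 13570 to 16920 in Ai-α4KO BAT. Of 6 brown adipocyte markers 5 were called lower in iWAT and 2 in BAT, with median log2 fold changes of -3.08 and -0.615. All 8 macrophage markers were called higher in each depot, with 1138 to 1926 CPM in Control iWAT, 7416 to 9976 in Ai-α4KO iWAT, 229 to 517 in Control BAT and 4272 to 6986 in Ai-α4KO BAT. Of 5 neutrophil markers 4 were higher in iWAT and 5 in BAT, with median log2 fold changes of 2.44 and 3.86. Of 5 endothelial markers 3 and 4 were lower, with medians of -1.18 and -1.48. The median log2 fold change of the macrophage markers was 2.30 in iWAT and 3.99 in BAT, where Slc7a7 had 1.53 and 2.98 and Slc38a1 1.76 and 4.11. Of 6 T cell markers none was called in iWAT and 4 were called higher in BAT, with medians of -2.0 and 2.10 and summed levels of 9.91 to 207 CPM in Control iWAT, 22.3 to 56.8 in Ai-α4KO iWAT, 2.58 to 5.47 in Control BAT and 17.4 to 58.5 in Ai-α4KO BAT. Of the B cell markers, 1 of 7 tested was lower in iWAT and 2 of 4 tested were higher in BAT (Cd22 and Cd79b), and of 6 stromal markers 2 were higher in BAT (Col3a1 and Lum). For the adipocyte markers the median log2 fold change was -2.04 and -2.0, where Slc1a5 had -2.05 and -2.10, Slc1a3 -1.74 and -1.24, and Slc7a10 -1.47 and 0.30. None of the defining macrophage or adipocyte markers was at 0 in any group, and the part of cell type content in the transporter changes was not tested. The muscle markers were at 1021 to 11160 CPM in Control BAT and 15320 to 48740 in Ai-α4KO BAT, and of the 8 calls in BAT only that of Slc7a2 was lost with the muscle marker score as a covariate.

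**Figure D5:**
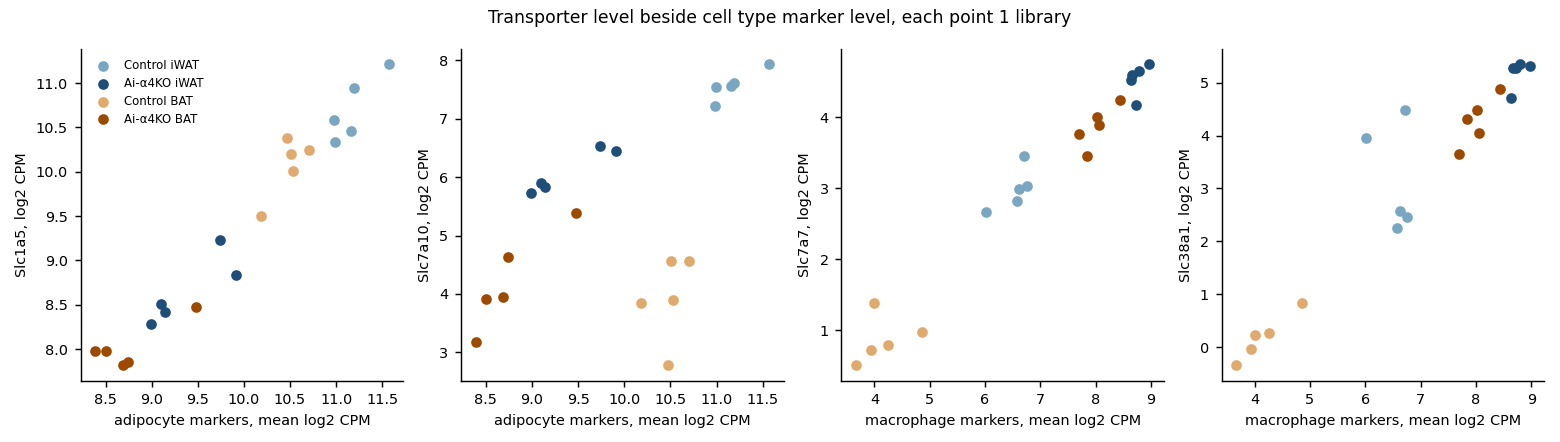
Log2 CPM of Slc1a5 and Slc7a10 against the mean log2 CPM of 8 adipocyte markers, and of Slc7a7 and Slc38a1 against that of 8 macrophage markers, with 1 point per library and colours for the 4 groups. Control BAT has adipocyte marker levels of 10.2 to 10.7 beside low Slc7a10, and Control iWAT 1 and 4 have Slc38a1 levels above the other Control iWAT libraries at macrophage marker levels of 6.71 and 6.01.

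Patterns closest to each transporter were taken as the 3 genes with the highest Pearson's r of log2 CPM over the 20 libraries, a description of libraries that share 4 group means. For Slc1a5 these were Kctd3 (0.98), Pygb (0.978) and Adipoq, the adiponectin gene (0.975), and for Slc7a10 they were Serpina3c (0.972), Tmem43 (0.971) and Retn, the resistin gene (0.968). Slc7a5 had Slc38a1 as its nearest gene (0.984), followed by Bin2 (0.983) and D730005E14Rik (0.982). Slc38a1 was closest to Apobec3 (0.994), Sash3 (0.994) and Ptpn6 (0.993), the pair with Apobec3 having an r of 0.962 after group means were removed. Slc7a7 followed Tnfrsf1b, a TNF receptor (0.991), P2ry6 (0.99) and Rab3il1 (0.99). The nearest genes of the others had r of 0.984 for Slc7a1 (Spdl1), 0.968 for Slc1a3 (Sort1), 0.96 for Slc3a2 (Ftl1), 0.951 for Slc38a2 (Ebna1bp2) and 0.917 for Slc7a2 (Pdlim7), which was the lowest of the 10. After group means were removed, r was lower for all these pairs and ran from 0.664 (Slc7a1 with its second gene, Slc39a6) to the value of Slc38a1 with Apobec3, with 0.719 for Slc1a5 with Adipoq and 0.731 for Slc7a7 with Tnfrsf1b.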

How the data were processed

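RNA of iWAT and BAT from 5 Control and 5 Ai-α4KO libraries per depot was analysed, grouped by GEO's labels. The authors deposited, for each gene and library, an expected count (an estimated read number, not normalized; 76.7% of the nonzero values are whole). The authors also deposited FPKM values, which are counts scaled by transcript length and library total. The submitters' processing notes name bcl2fastq 2, STAR 2.5.3a and mm10, and the counting tool is not given in the sources used here. After rounding, the counts were fitted with edgeR 4.0.16 under R 4.3.3 (filterByExpr, TMM, glmQLFit and glmQLFTest, Benjamini-Hochberg over all genes tested), within each depot for genotype and over all 20 libraries for the interaction and the depots. Genes were called at an adjusted p below 0.01 with a change of at least 2-fold; the study gives FDR limits of both 0.01 and 0.05 beside that fold, and 0.05 was an alternative. Log2 CPM used a prior count of 2. Exact permutation tests were two-sided. The fits were tested on simulated data. The table lists no gene of the mitochondrial chromosome, and Ly6g was not in it. Totals of 24023371 to 50384446 counts cover counting error only.

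The transporters, lists and markers were chosen with earlier results of these data known. Named genes are all 10 transporters, Igbp1, the light chains of Slc3a2, up to 4 called genes of largest fold per list, direction and depot, and the 3 nearest genes by correlation. Alternatives were DESeq2 1.42.0, limma 3.58.1 on log2(FPKM + 1) and log2(FPKM + 0.1), other normalizations and filters, an adjusted p below 0.05, a replicate block, marker scores as covariates, 1 fit of all libraries, and leaving libraries out. Protein sequences were not analysed here. Not every gene that this naming rule selects is reported here.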

Additional observations from a re-analysis of the deposited data

Results flagged for a closer look

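In a comparison of each library with the other four of its group, 40 groups were tested (each transporter in each group), and chance flags about 1 in 20 such groups. In 4 of them 1 library stood apart by more than the critical ratio of gap to range on log2 CPM, 0.71. Slc3a2 was highest in Control iWAT 1, at 120 CPM (ratio 0.735). Slc1a5 was highest in Ai-α4KO BAT 1, at 356 CPM (ratio 0.754), the library with the highest adipocyte marker level of its group. Slc38a1 was lowest in Ai-α4KO iWAT 1, at 26 CPM (ratio 0.886), and Slc38a2 was highest in Ai-α4KO iWAT 2, at 213 CPM (ratio 0.859).

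The genotype effect differed between depots for 2 transporters in edgeR's interaction test, where 3.10% of 15230 genes were called with a log2 fold change in BAT above that in iWAT, whether from a larger rise or a smaller fall, and 0.735% with one below it. For Slc7a7 the effect in BAT exceeded that in iWAT by 1.49 on the log2 scale (adjusted p = 0.00129). For Slc38a1 it did so by 2.38 (adjusted p = 0.0067), a call that was lost with the replicate block (adjusted p = 0.0171), with both limma settings and when any of 5 single libraries was left out. The iWAT rise of Slc38a1 was 2.69 instead of 1.76 without Control iWAT 1 and 4, and the interaction was not refitted without both. With a library left out at a time, 1 to 4 transporters and 294 to 783 genes were called in this direction. Of the 8 macrophage markers 6 had a called difference in the same direction.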

How the results depend on the processing

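The direction of every transporter's genotype effect within a depot was kept under all alternatives except that of Slc7a10 in BAT, which was -0.021 with the muscle score as a covariate and -0.08 without Ai-α4KO BAT 1 (-0.08 to 0.50 with each BAT library left out). Without normalization factors the median of all genes moved to 0.13 in iWAT and 0.23 in BAT (log2), 72.0% instead of 57.8% of the BAT calls were higher, and 1265 genes were lower in BAT. Precision is limited by 5 libraries a group and, for Slc7a5 in Control BAT, by low counts: at least 10 counts in every library left it untested there.

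The setting that moved most counts was limma on log2(FPKM + 1), with 779 genes lower in iWAT, 807 genes and 1 transporter lower in BAT, 306 genes higher and 63 lower in the interaction with 0 transporters called and 5 at an unadjusted p below 0.05, and 547 genes higher, 1297 lower and 2 transporters lower between Control depots. Limma on log2(FPKM + 0.1) gave 1205 genes and 1 transporter lower in BAT and 1 transporter in the interaction. The muscle score left 1683 genes higher in BAT. Without normalization factors 1 transporter was lower in BAT and 67 genes were lower in the interaction. The interaction had 1098 genes higher and 4 transporters with DESeq2 (Slc7a5 and Slc7a10 in addition), 1213 higher, 205 lower and 4 transporters at an adjusted p below 0.05, 74 lower with upper-quartile normalization and 66 lower with at least 10 counts. The cause of these moves was not tested. The interaction of Slc1a5 turned positive at 0.094 without normalization factors, 0.065 with upper quartiles, 0.048 with no filter, 0.13 with at least 10 counts, 0.05 with DESeq2, and 0.11 with either limma setting.

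With 1 library left out at a time, iWAT had 1465 to 1736 genes higher and 1364 to 1743 lower, with 4 to 6 transporters higher and 3 lower. BAT had 2414 to 2634 genes higher and 1812 to 1968 lower, with 5 to 6 transporters higher and 2 lower. The interaction had 294 to 783 genes higher, 60 to 116 lower and 1 to 4 transporters higher, and that of Slc1a5 ran from -0.16 to 0.25. Between Control depots 1011 to 1303 genes were higher and 2134 to 2389 lower, with 4 transporters lower.

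Same-numbered Control and Ai-α4KO libraries had correlations of their deviations from group means between -0.451 and 0.134 in iWAT and -0.147 and 0.215 in BAT, and same-numbered iWAT and BAT libraries between -0.081 and 0.221 in Control and -0.265 and 0.244 in Ai-α4KO mice. Not every library correlated best with its own number, and the numbers were not taken as pairs. With the replicate block, 5 transporters were higher and 3 lower in iWAT, 6 higher and 2 lower in BAT, and 1 (Slc7a7) was called in the interaction, where Slc38a1 had 2.25 (edgeR, adjusted p = 0.0171) and Slc1a5 0.021. The 3 sets of libraries left out by muscle or epithelial markers were chosen after seeing the data, and of these the BAT set and the iWAT muscle set are described beside Slc7a2. Without the iWAT libraries with high muscle markers 5 transporters were higher and 3 lower, and without those with epithelial markers 4 were higher and 3 lower, Slc38a2 being lost at 0.86.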
